A study of Mus musculus with 24 samples.

Results

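Rubcnl and 9 further autophagy genes were followed by RNA sequencing in SIM-A9, an established line of mouse microglia. The 10 genes were Rubcnl, Rubcn, Becn1, Uvrag, Ulk1, Wipi1, Map1lc3b, Gabarapl1, Sqstm1 and Optn, out of 54838 gene identifiers in the deposited count table. They were found by their mouse gene symbols, and each symbol matched 1 identifier. There were 8 groups of 3 libraries. Control cells are labelled untreated. The protocol text, which is the same for every sample, describes an addition to the wells and does not say what Control wells were given. The other groups received lipopolysaccharide (LPS, a bacterial cell wall component used as the inflammatory reference), single-walled carbon nanotubes labelled (GT)6 SWCNT, carboxylated nanotubes (COOH SWCNT), the calcium dye Fura-2, the voltage dye DiBASC2, the voltage dye Di-2-ANEPEQ, or AAV, an adeno-associated virus. All cells were the same line held in serum-free medium, and RNA was taken 2 h after the addition. Doses are not given in the labels, and serum-free medium was shared by all groups, Control included. Rubcnl was chosen by its low CPM and negative log2 fold change with LPS and (GT)6 SWCNT, so its levels there are described without a test. The other 9 genes are autophagy genes listed with it; which values, if any, entered their choice is not recorded, so their p-values are not independent of earlier results.

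Autophagy encloses cytoplasmic material in a double membrane, the autophagosome, which then fuses with lysosomes. The ULK1 kinase complex starts the process, class III PI3-kinase complexes built on Beclin 1 mark the membrane with PI3P, ATG8 proteins are coupled to that membrane, and cargo receptors tether what is to be degraded. Rubicon, the product of Rubcn, and its relative Pacer, the product of Rubcnl, both bind the PI3-kinase complex that contains UVRAG: Rubicon restrains maturation of autophagosomes, whereas Pacer promotes it. Rubicon also takes part in LC3-associated phagocytosis, a use of the same machinery on phagosomes of macrophages and microglia.

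Levels are given in CPM, the reads of a gene relative to all reads of its library, scaled to a common library size with TMM factors. Each difference is a log2 fold change with its standard error (SE) from 1 model of all 24 libraries (edgeR's quasi-likelihood test). A gene is called, and said to have risen or fallen, at a Benjamini-Hochberg adjusted p under 0.05 over the 13116 genes tested in that contrast. Of the 10 genes, 9 were tested, and Optn was too low to be. Over all tested genes, the libraries did not overlap Control in 38.3% with LPS, 34.3% with (GT)6 SWCNT and 34.4% with COOH SWCNT. The share was 16.2% with Fura-2, 22.6% with DiBASC2, 24.3% with Di-2-ANEPEQ and 24.6% with AAV. Between (GT)6 SWCNT and COOH SWCNT it was 35.5%. A library held 17364272 to 29259221 counts in all. The microglial and macrophage markers Csf1r (461 to 553 CPM) and Cd68 (724 to 989 CPM) were high in every library, while Tmem119 (2.75 to 5.32 CPM) and P2ry12 (1.54 to 3.26 CPM) were low and Sall1 had at most 2 counts. The summed markers of this class lay between 2301 and 2608 CPM. Syt1 of neurons and Mog of oligodendrocytes were at 0 throughout, and Gfap of astrocytes had at most 9 counts. Tnf, the check of the LPS label, stood at 35.6 ± 1.26 CPM in Control and 1144 ± 53.8 CPM in LPS (SD, n = 3). The labels do not say whether the 3 libraries of a group came from separate cultures, so p-values measure the spread between these libraries, which may be technical.

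Rubcnl (ENSMUSG00000034959.8, chromosome 14, 75016027 to 75052532, forward strand of GRCm38) is a protein-coding gene whose exons overlap no other gene. It had a graded pattern: lowest with LPS, next lowest with (GT)6 SWCNT, moderately lower with COOH SWCNT and highest with DiBASC2. The 250 bases before its RefSeq start (GRCm38.p6) are shown together with those of Sqstm1, which moved the other way, and of 1 of the Rubcn starts, which holds an E-box. Capitals mark the motif matches described with each gene, and the Rubcnl window has none.
Rubcnl, chr14:75015777-75016026, forward strand: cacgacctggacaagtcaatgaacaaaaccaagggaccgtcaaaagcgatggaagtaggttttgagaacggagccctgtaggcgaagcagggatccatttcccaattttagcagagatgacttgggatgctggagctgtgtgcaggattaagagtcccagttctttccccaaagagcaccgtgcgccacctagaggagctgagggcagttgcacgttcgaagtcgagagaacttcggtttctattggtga
Sqstm1, chr11:50210821-50211070, reverse strand: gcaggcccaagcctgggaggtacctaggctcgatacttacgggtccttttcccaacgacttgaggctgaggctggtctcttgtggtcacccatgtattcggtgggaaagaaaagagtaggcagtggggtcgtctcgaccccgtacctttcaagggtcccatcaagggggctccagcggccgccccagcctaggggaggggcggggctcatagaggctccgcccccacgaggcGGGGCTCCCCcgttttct
Rubcn, chr16:32868367-32868616, reverse strand: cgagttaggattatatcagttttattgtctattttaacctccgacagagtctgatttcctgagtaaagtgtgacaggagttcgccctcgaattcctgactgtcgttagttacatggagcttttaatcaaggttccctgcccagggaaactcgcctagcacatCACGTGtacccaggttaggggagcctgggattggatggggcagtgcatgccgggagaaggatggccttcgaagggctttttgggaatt

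The 5 motifs searched, on both strands, were the E-box CACGTG, the antioxidant response element TGACNNNGC, AP-1 TGANTCA, PU.1 GAGGAAG and the NF-kB site by its consensus. RefSeq windows were matched for 9 of the 10 genes, with 2 starts for Rubcn; Becn1 had no entry. Among the 10 windows, the only matches were the NF-kB match of Sqstm1 and the E-box of Rubcn. Over all 32851 promoter windows of this length, 7.25% held an NF-kB match and 6.02% an E-box, while the other shares were 10.2% for the antioxidant response element, 6.75% for AP-1 and 10.6% for PU.1. A match or its absence here describes only these letters.

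In the 3 Control libraries Rubcnl stood at 9.18, 10.5 and 10.2 CPM. With LPS it stood at 2.28, 1.76 and 1.87 CPM, on 36 to 42 counts per library, and with (GT)6 SWCNT at 4.56, 4.77 and 4.28 CPM. The LPS and (GT)6 SWCNT libraries overlapped neither each other nor Control. The LPS mean of 1.97 ± 0.276 CPM was 0.197 times the Control mean of 9.95 ± 0.682 CPM (SD, n = 3), or −2.35 ± 0.13 (SE) on the log2 scale. The (GT)6 SWCNT mean of 4.54 ± 0.248 CPM gave −1.13 ± 0.11. These values led to the choice of the gene, so no test is attached to them. In bulk RNA, a lower level in every cell and a loss from some of the cells cannot be told apart.

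Among the groups whose own libraries did not enter its choice, Rubcnl was called with COOH SWCNT and with DiBASC2. The choice used fold changes against the same Control libraries, so tests of Rubcnl against Control are not independent of it. With COOH SWCNT it was at 7.44, 8.12 and 6.89 CPM, every library below every Control library. It fell by 0.42 ± 0.10 on the log2 scale (95% interval −0.62 to −0.22, adjusted p 0.001555). With DiBASC2 it was at 11.99, 12.4 and 12.9 CPM, every library above every Control library. Rubcnl rose there by 0.31 ± 0.09 (95% interval 0.13 to 0.50, adjusted p 0.02929). That call was lost without Control replicate 1 (adjusted p 0.169), without Control replicate 3, or without DiBASC2 replicate 2 or 3 (lowest of these 4 adjusted p-values 0.0584), and it was lost with no filter on low counts (adjusted p 0.0717).

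Rubcnl was not called in the remaining groups. It was at 9.64, 9.15 and 10.4 CPM with Fura-2, at 9.56, 9.30 and 10.7 CPM with Di-2-ANEPEQ, and at 10.2, 10.04 and 9.07 CPM with AAV. Each of these groups overlapped Control. The 95% intervals of the log2 fold change were −0.22 to 0.16 for Fura-2, −0.21 to 0.17 for Di-2-ANEPEQ and −0.21 to 0.16 for AAV. In the order of group means, LPS, (GT)6 SWCNT and COOH SWCNT each lay apart from the next group, Fura-2, AAV, Di-2-ANEPEQ and Control overlapped their neighbours, and DiBASC2 lay apart at the top.

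**Figure D1:**
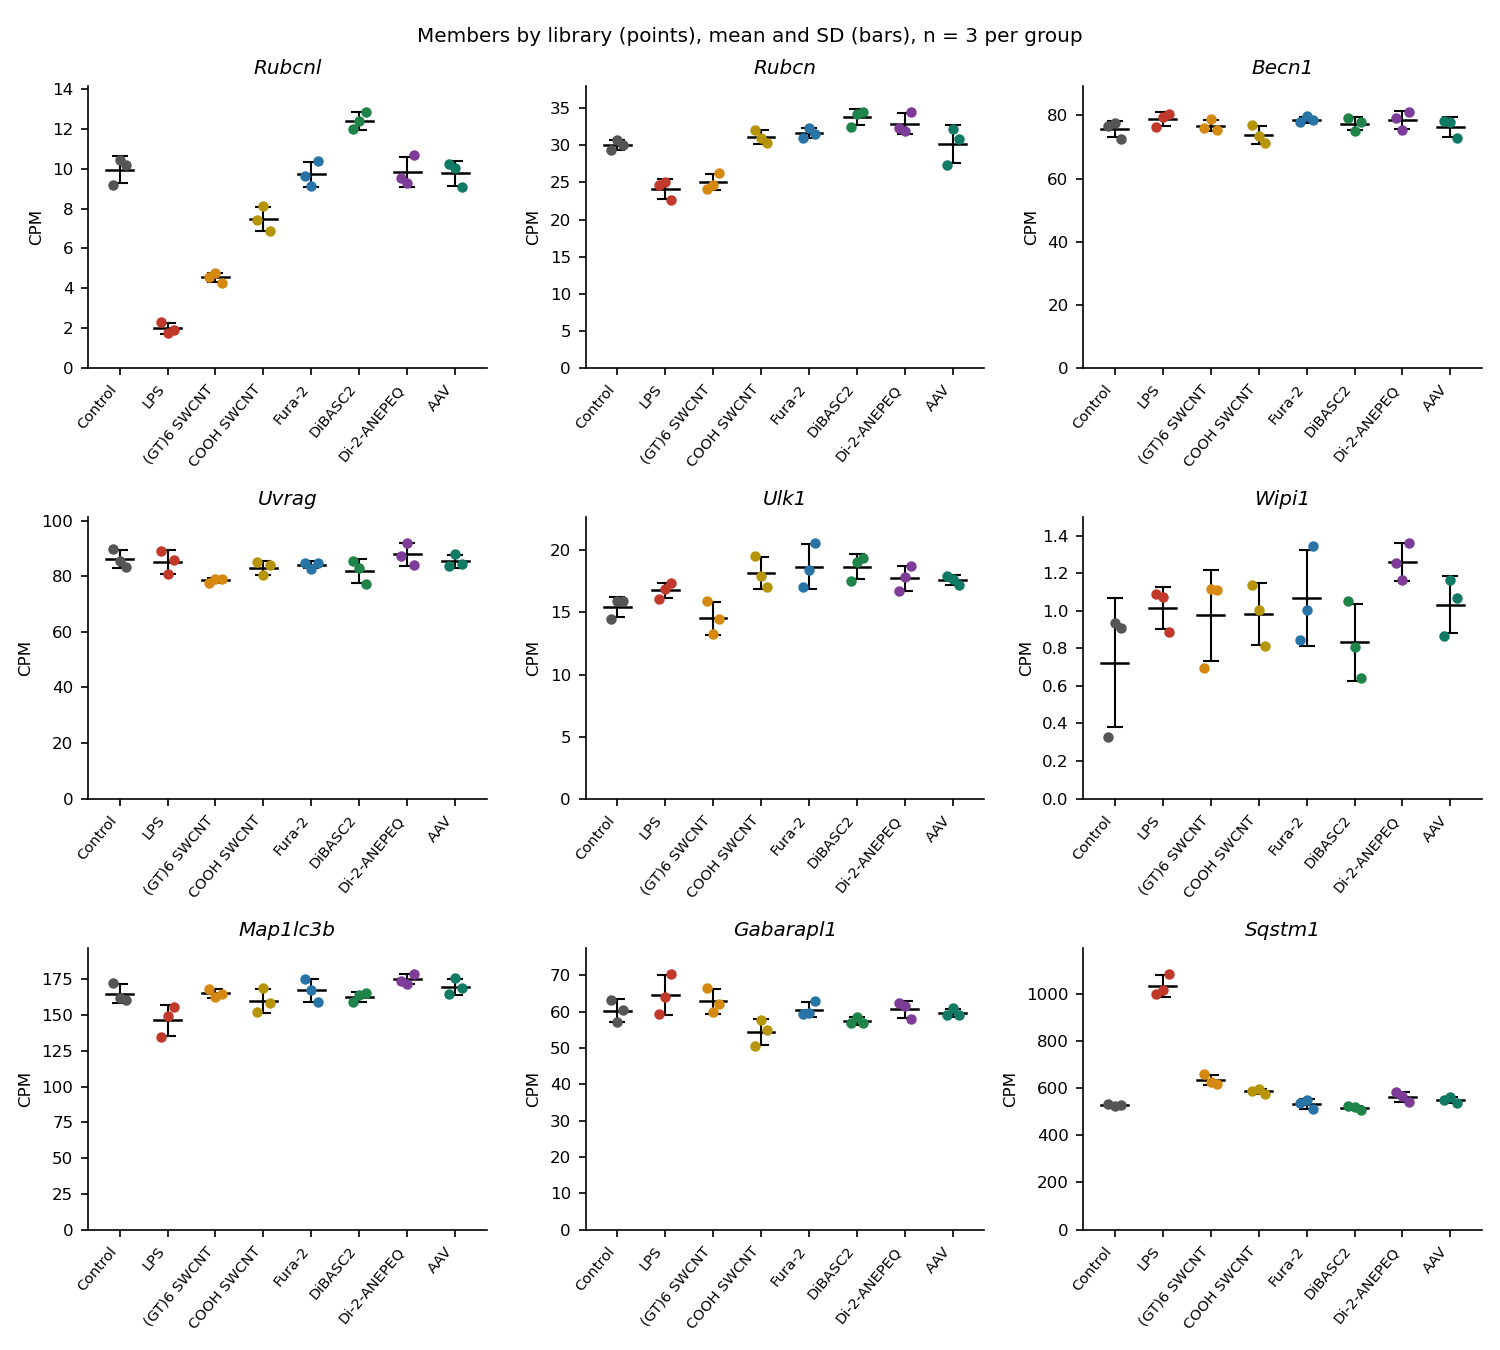
CPM of the 9 tested genes in each of the 24 libraries (points), with the group mean and SD (bars, n = 3), in panels whose vertical axes start at 0. The Rubcnl libraries step down from Control through COOH SWCNT and (GT)6 SWCNT to LPS, at 1.76 to 2.28 CPM, while the Sqstm1 libraries of LPS stand above all others at 999 to 1085 CPM.

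Rubcn, the relative of Rubcnl with the opposite role, fell with LPS and (GT)6 SWCNT and was not called with COOH SWCNT, where Rubcnl fell. Rubcn (chromosome 16, 32821703 to 32877766, reverse strand) was at 29.3, 30.7 and 30.1 CPM in Control, at 24.7, 25.1 and 22.6 CPM with LPS, and at 24.1, 24.7 and 26.2 CPM with (GT)6 SWCNT. All 6 of these treated libraries lay below the Control libraries, and the treated groups overlapped each other. Rubcn fell by 0.32 ± 0.06 with LPS (adjusted p 0.0001472) and by 0.27 ± 0.06 with (GT)6 SWCNT (adjusted p 0.001567). With COOH SWCNT it was at 32.1, 30.96 and 30.4 CPM and was not called (0.05 ± 0.06, 95% interval −0.07 to 0.18). With DiBASC2 it was at 32.5, 34.3 and 34.6 CPM, above Control in all 3 libraries, but was not called either (0.17 ± 0.06, adjusted p 0.0947), although upper-quartile scaling gave 0.20 and an adjusted p of 0.0488. It was not called with Fura-2 (31.05 to 32.4 CPM), Di-2-ANEPEQ (32.02 to 34.5 CPM) or AAV (27.3 to 32.3 CPM). Every library of Fura-2 (0.07 ± 0.06) and of Di-2-ANEPEQ (0.13 ± 0.06, adjusted p 0.2607) lay above Control, while AAV overlapped it. The E-box in the window printed above starts 88 bases before the Rubcn start, which is one of the 2 listed. Of the exon bases of Rubcn, 2.29% are shared with Fyttd1 on the other strand.

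Becn1, which encodes the Beclin 1 scaffold of the PI3-kinase complexes, was called in none of the 8 contrasts. Becn1 (chromosome 11, 101285952 to 101302286, reverse strand) was at 76.7, 77.7 and 72.7 CPM in Control, and its group means ran from 73.9 CPM with COOH SWCNT to 78.9 CPM with LPS. Groups next to each other in the order of means overlapped throughout. The Fura-2 libraries (77.9 to 79.8 CPM) all lay above Control, without a call (0.05 ± 0.04, adjusted p 0.6925). For LPS the 95% interval of its log2 fold change was −0.03 to 0.15. Becn1 shares 43.9% of its exon bases with Cntd1 on the other strand, which had 1 to 8 counts per library.

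Uvrag encodes the subunit that sets the complex bound by Rubicon and Pacer apart from the one that starts autophagosomes. Uvrag (chromosome 7, 98885021 to 99141141, reverse strand) was at 89.7, 85.5 and 83.4 CPM in Control and at 77.5, 79.0 and 79.0 CPM with (GT)6 SWCNT. The (GT)6 SWCNT libraries lay below Control, and Uvrag fell by 0.14 ± 0.05 (adjusted p 0.03055). This call was lost when any 1 of the 6 libraries was left out, Control or (GT)6 SWCNT alike (adjusted p up to 0.276), with DESeq2 size factors and in DESeq2's own test (both 0.0514), and with no filter on low counts (0.0803). With LPS, Uvrag was at 89.1, 80.6 and 85.8 CPM, overlapped Control and was not called, as in every other contrast.

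Ulk1, the kinase that starts autophagosome formation, was higher with COOH SWCNT and DiBASC2. Ulk1 (chromosome 5, 110784488 to 110810097, reverse strand) was at 14.5, 15.9 and 15.9 CPM in Control, at 19.6, 17.9 and 17.03 CPM with COOH SWCNT, and at 17.5, 19.1 and 19.4 CPM with DiBASC2. All 6 treated libraries were above Control. Ulk1 rose by 0.23 ± 0.08 with COOH SWCNT (adjusted p 0.03452) and by 0.27 ± 0.08 with DiBASC2 (adjusted p 0.03522). The COOH SWCNT call was lost without Control replicate 1, COOH SWCNT replicate 1 or COOH SWCNT replicate 2 (adjusted p up to 0.2) and with no filter on low counts (0.059). The DiBASC2 call was lost when 5 of the 6 libraries were left out in turn (adjusted p up to 0.174), all but DiBASC2 replicate 1.

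The Ulk1 level also lay above Control in every library of LPS (16.1, 16.9 and 17.3 CPM), Fura-2 (17.1, 18.4 and 20.6 CPM), Di-2-ANEPEQ (16.7, 17.8 and 18.7 CPM) and AAV (17.95, 17.7 and 17.2 CPM), without being called. The log2 fold changes were 0.12 ± 0.08 with LPS, 0.27 ± 0.08 with Fura-2, 0.20 ± 0.08 with Di-2-ANEPEQ and 0.19 ± 0.08 with AAV. These contrasts share the same Control libraries, so they are not independent observations. For Fura-2 the adjusted p was 0.141, and 0.0475 without Fura-2 replicate 1. In (GT)6 SWCNT, Ulk1 was at 15.9, 13.2 and 14.5 CPM and overlapped Control.

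Wipi1, which encodes a PI3P-binding protein of the growing membrane, was barely expressed. Wipi1 (chromosome 11, 109573331 to 109611967, reverse strand) had 6 to 37 counts per library, or 0.33 to 1.36 CPM. The lowest library was Control replicate 1, with 6 counts against 22 and 17 in the other Control libraries. Wipi1 was called in no contrast, and its standard errors of 0.30 to 0.33 were the widest of the 9 genes. Its largest difference was 0.76 with Di-2-ANEPEQ (95% interval 0.14 to 1.38, adjusted p 0.18), where the libraries stood at 1.254, 1.16 and 1.36 CPM.

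The ATG8 members coat the autophagosome and bind cargo receptors. Map1lc3b, which encodes LC3B, the protein used as the standard marker of autophagosomes, fell with LPS. Map1lc3b (chromosome 8, 121590361 to 121598760, forward strand) was at 172, 161 and 161 CPM in Control and at 134, 149 and 156 CPM with LPS. All LPS libraries were below Control, and Map1lc3b fell by 0.17 ± 0.05 (adjusted p 0.004466). The call was lost without Control replicate 1 (0.0616) or LPS replicate 1 (0.0953). Map1lc3b was called in no other contrast, with group means from 159.7 CPM in COOH SWCNT to 175 CPM in Di-2-ANEPEQ.

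Gabarapl1, another ATG8 gene, did not pass the test against Control in any group. Gabarapl1 (chromosome 6, 129533160 to 129542346, forward strand) was at 63.2, 57.2 and 60.4 CPM in Control, at 59.4, 64.0 and 70.5 CPM with LPS, and at 50.4, 57.6 and 55.01 CPM with COOH SWCNT. Both treated groups overlapped Control. The differences were 0.10 ± 0.06 with LPS (adjusted p 0.173, and 0.024 without LPS replicate 1) and −0.15 ± 0.06 with COOH SWCNT (adjusted p 0.05244). Without Control replicate 2 or COOH SWCNT replicate 2 the COOH SWCNT difference passed, at adjusted p-values of 0.0294 and 0.0233. Gabarapl1 shares 28.3% of its exon bases with 1700101I11Rik on the other strand, which had at most 12 counts.

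Sqstm1 encodes p62, the receptor that carries ubiquitinated cargo to autophagosomes and is itself degraded with it. It rose with LPS, (GT)6 SWCNT and COOH SWCNT, in that order of size, and was the most abundant of the 10 genes. Sqstm1 (chromosome 11, 50199366 to 50210827, reverse strand) was at 534, 525 and 528 CPM in Control and at 999, 1014 and 1085 CPM with LPS. The LPS mean was 1.95 times the Control mean, a log2 fold change of 0.96 ± 0.04 (adjusted p 4.238e-22).

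With (GT)6 SWCNT, Sqstm1 was at 661, 625 and 618 CPM, and with COOH SWCNT at 589, 594 and 574 CPM. None of these libraries overlapped Control, and the 2 nanotube groups did not overlap each other. Sqstm1 rose by 0.26 ± 0.04 with (GT)6 SWCNT (adjusted p 1.273e-06) and by 0.15 ± 0.04 with COOH SWCNT (adjusted p 0.004893). It was not called with Fura-2 (512 to 551 CPM), DiBASC2 (507 to 523 CPM), Di-2-ANEPEQ (541 to 582 CPM) or AAV (538 to 561 CPM). Still, every DiBASC2 library lay below Control (−0.03 ± 0.04). Every library of Di-2-ANEPEQ (0.09 ± 0.04, adjusted p 0.2102) and of AAV (0.05 ± 0.04) lay above it. The NF-kB match in the Sqstm1 window printed above starts 18 bases before the start. Of the Sqstm1 exon bases, 17.3% are shared with Mrnip on the other strand, which had 69 to 218 counts per library.

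Optn encodes optineurin, another cargo receptor, known for its part in removing damaged mitochondria and bacteria. Optn (chromosome 2, 5020642 to 5064051, reverse strand) had 0 counts in all 24 libraries. A count of 0 allows up to 3 counts, which is 0.103 to 0.173 CPM depending on the library, a limit that covers counting error only. Whether the 0 comes from the cells or from how reads were counted cannot be told apart in the table, so the limit is one of counted reads. No contrast could be formed for Optn.

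Scaled by length, the Control levels of the 10 genes spanned a wide range. In CPM per kb of exon, Sqstm1 was at 158, followed by Gabarapl1 at 29.9, Map1lc3b at 21.9, Becn1 at 10.7, Uvrag at 9.54, Rubcn at 4.02, Ulk1 at 2.38, Rubcnl at 2.07 and Wipi1 at 0.164. Rubcnl was thus among the less abundant transcripts before any treatment, and in the LPS group it stood at 0.411 CPM per kb while Sqstm1 stood at 308.

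**Figure D2:**
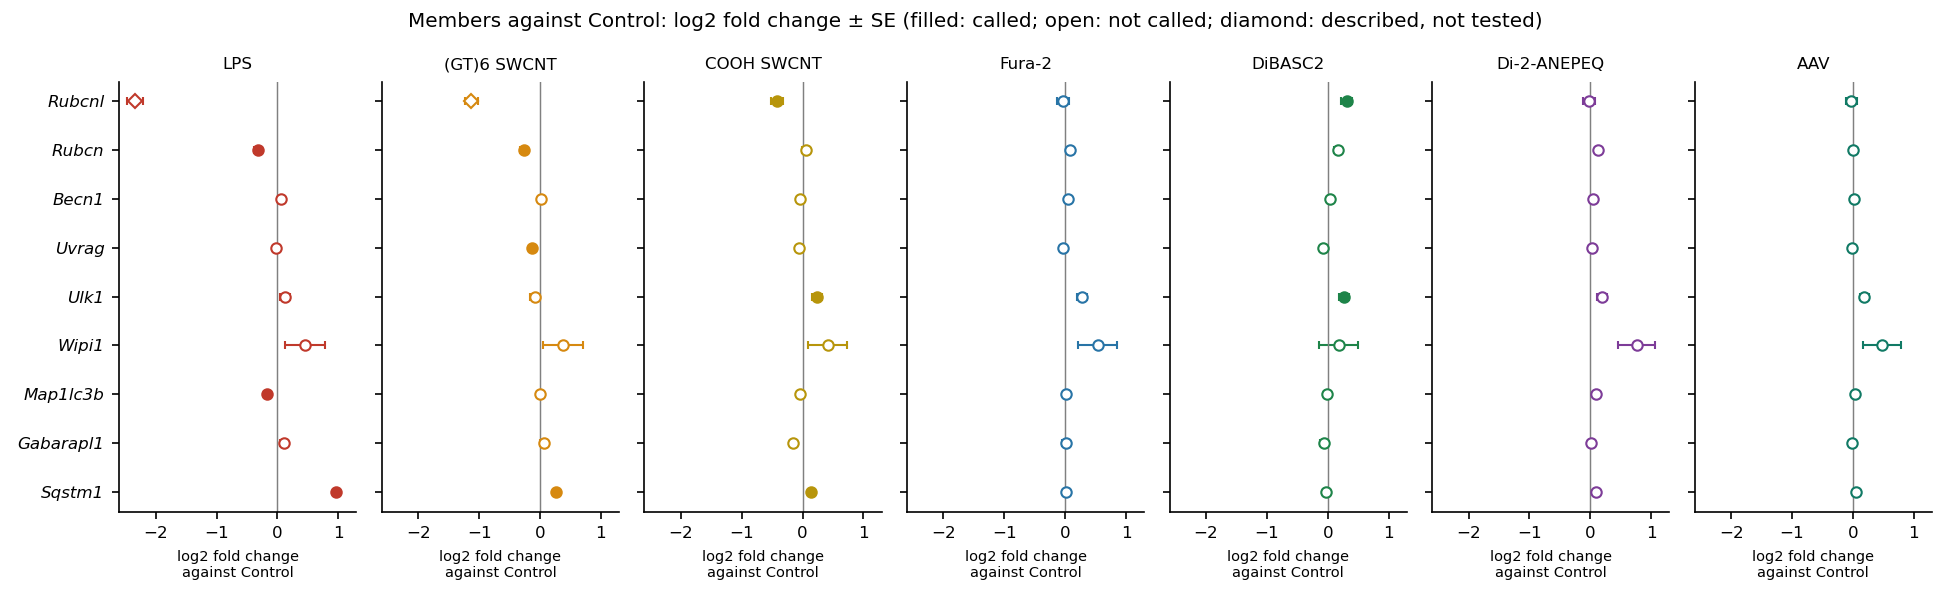
Log2 fold change against Control (horizontal axis, ± SE) of the 9 tested genes in the 7 treatments, with filled circles for called genes, open circles for genes not called and diamonds for the Rubcnl values that are described without a test. The described Rubcnl values of −2.35 with LPS and −1.13 with (GT)6 SWCNT stand farthest from 0, Sqstm1 with LPS is at 0.96, and no gene is filled for Fura-2, Di-2-ANEPEQ or AAV.

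The number of called genes in the set is given for each treatment beside the share over all tested genes. With LPS, 3 of the 8 tested genes other than Rubcnl were called (Sqstm1 higher, Rubcn and Map1lc3b lower), where 28.3% of all tested genes were called. With (GT)6 SWCNT, 3 of 8 were called (Sqstm1 higher, Rubcn and Uvrag lower), against 20.4% of all genes. With COOH SWCNT, 3 of 9 were called (Sqstm1 and Ulk1 higher, Rubcnl lower), against 20.0%. With DiBASC2, 2 of 9 were called, Rubcnl and Ulk1, both higher, against 5.47%.

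None of the 9 was called with Fura-2, where 0.252% of all genes were (0.0381% higher, 0.213% lower), with Di-2-ANEPEQ (3.08%) or with AAV (5.00%) in edgeR's test, and DESeq2's test called none of the 9 in these groups either. At an unadjusted p under 0.05 there was 1 gene with Fura-2, 4 with Di-2-ANEPEQ and 1 with AAV. Shares over 8 or 9 genes are imprecise, and the genes were chosen with results of these data known.

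The 2 nanotube preparations were also compared directly. Between (GT)6 SWCNT and COOH SWCNT, 4 of the 8 tested genes other than Rubcnl were called, 2 higher and 2 lower in (GT)6 SWCNT, where 21.4% of all genes were (11.9% higher, 9.48% lower). Rubcn was lower in (GT)6 SWCNT by 0.32 ± 0.06 on the log2 scale (24.1 to 26.2 against 30.4 to 32.1 CPM, adjusted p 0.000211). Ulk1 was also lower by 0.32 ± 0.08 (13.2 to 15.9 against 17.03 to 19.6 CPM, adjusted p 0.003212). For both genes the libraries of the preparations did not overlap.

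Gabarapl1 was higher in (GT)6 SWCNT by 0.21 ± 0.06 (59.8 to 66.6 against 50.4 to 57.6 CPM, adjusted p 0.004695). Sqstm1 was higher by 0.12 ± 0.04 (618 to 661 against 574 to 594 CPM, adjusted p 0.0249). The Gabarapl1 call was lost without COOH SWCNT replicate 1 (0.0553) or (GT)6 SWCNT replicate 1 (0.054). The Sqstm1 call was lost without COOH SWCNT replicate 3 (0.0802), without (GT)6 SWCNT replicate 1 (0.15) and with upper-quartile scaling (0.0589). Becn1, Uvrag, Wipi1 and Map1lc3b were not called. Rubcnl, described only, was lower in (GT)6 SWCNT by 0.71 ± 0.11.

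A wider list of 74 autophagy genes, in 8 stages and including the 10, placed these genes among their pathway. Apart from Rubcnl, 72 of them were tested. With LPS, 11 of the 72 rose and 10 fell, with a median log2 fold change of −0.01, equal after rounding to the −0.01 over all genes, of which 13.8% rose and 14.5% fell. With (GT)6 SWCNT, 10 rose and 6 fell (9.90% and 10.5% of all genes), and the median was −0.02 for the list and for all genes. With COOH SWCNT, 10 rose and 5 fell (9.39% and 10.6% of all genes), with a median of 0.02 against 0.00. With upper-quartile scaling the split was 8 higher and 18 lower with LPS and 9 and 9 with (GT)6 SWCNT. All genes shifted the same way under that scaling: 35.4% of the 4115 genes called with LPS and 44% of the 2752 called with (GT)6 SWCNT were higher.

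By stage, 0 of the 14 genes for fusion with lysosomes rose with LPS and 4 fell, where 13.8% of all genes rose and 14.5% fell. Plekhm1, an adaptor that joins Rab7 and the HOPS tethering complex on late endosomes and autophagosomes, was at 139, 139 and 139 CPM in Control and at 73.9, 69.9 and 69.1 CPM with LPS. It fell by 0.97 ± 0.05 (adjusted p 2.856e-19), about as far on the log2 scale as Sqstm1 rose. Vps18, a subunit of the HOPS complex, fell by 0.32 (adjusted p 5.583e-07). Plekhm1 shares 5.6% of its exon bases with Arhgap27os1.

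Among initiation genes, 2 of 5 rose with LPS and 0 fell, against the same 13.8% and 14.5% of all genes. Atg13, the ULK1 partner, was at 181, 174 and 174 CPM in Control, at 235, 237 and 230.3 CPM with LPS, at 230.5, 222 and 216 CPM with (GT)6 SWCNT, and at 195, 206 and 207 CPM with COOH SWCNT. No library of these 3 groups overlapped Control, and Atg13 rose by 0.41 ± 0.04, 0.34 ± 0.04 and 0.20 ± 0.04 (adjusted p 8.469e-11, 1.427e-08 and 0.0002382).

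In membrane supply, 3 of 10 genes rose with LPS and 0 fell (13.8% and 14.5% of all genes), too few to give the stage a direction. Vmp1, which encodes an endoplasmic reticulum scramblase, rose by 0.41 with LPS (adjusted p 3.158e-09) and by 0.26 with (GT)6 SWCNT (3.435e-05), from 82.5 ± 4.68 CPM in Control to 109 ± 2.48 and 98.7 ± 3.27 CPM (SD, n = 3). It fell by 0.21 with DiBASC2 (adjusted p 0.003502), by 0.22 with Di-2-ANEPEQ (0.004553) and by 0.16 with AAV (0.03094). The falls were not held in every subset: without Control replicate 1 the adjusted p was 0.0739 with DiBASC2, 0.0753 with Di-2-ANEPEQ and 0.209 with AAV, and the AAV call was also lost without Control replicate 3 (0.109), AAV replicate 2 (0.191) or AAV replicate 3 (0.0915). The microRNA gene Mir21a shares 2.38% of the Vmp1 exon bases, on the same strand. Wdr45b, a PI3P effector, rose by 0.24 with LPS (adjusted p 0.0004203), and Atg9a, a lipid scramblase of the supply vesicles, by 0.25 (0.01518). The Atg9a call was lost without Control replicate 3 (0.0507) or LPS replicate 1 (0.0892). Atg9a shares 32.6% of its exon bases with Gm29253 on the same strand and Ankzf1 on the other strand.

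Other genes that rose with LPS were Atg16l2 (0.44, adjusted p 5.538e-07), a relative of the ATG8 conjugation scaffold, and Tbk1 (0.32, adjusted p 3.322e-06), a kinase that phosphorylates cargo receptors. Foxo3, a transcription factor with autophagy genes among its targets, was at 48.7, 49.6 and 49.3 CPM in Control, at 38.1, 36.3 and 37.2 CPM with LPS, and at 38.9, 40.8 and 40.95 CPM with (GT)6 SWCNT. It fell by 0.40 (adjusted p 3.252e-07) and by 0.29 (0.0001119), with no overlap of libraries. Of 10 cargo receptors, 3 rose and 2 fell with LPS (13.8% and 14.5% of all genes). Those lower were Nbr1 (−0.18, adjusted p 0.008483) and Ncoa4 (−0.13, 0.03493). The Nbr1 call was lost without Control replicate 2 (0.0726) or LPS replicate 3 (0.0716). The Ncoa4 call was lost in 5 of 6 fits that left 1 library out (up to 0.293). It was also lost with DESeq2 size factors (0.0584), in DESeq2's test (0.0629) and in a fit of only these 2 groups (0.0591).

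The related factors Tfeb and Tfe3, which bind E-box sequences of lysosomal and autophagy genes, moved in opposite directions with (GT)6 SWCNT. Tfeb fell by 0.36 ± 0.10 (adjusted p 0.006601), from 13.2, 13.4 and 14.8 CPM to 10.5, 12.2 and 9.20 CPM, and Tfe3 rose by 0.27 ± 0.04 (adjusted p 1.2e-05), from 107, 109 and 109 CPM to 136, 133 and 123 CPM. Tfeb also fell by 0.33 with LPS (adjusted p 0.01018). Both Tfeb calls were lost without Control replicate 3 (0.0721 with LPS, 0.0682 with (GT)6 SWCNT) and without replicate 3 of the treated group (0.0545 and 0.0663). Tfe3 rose by 0.23 with COOH SWCNT (adjusted p 0.0001965) and fell by 0.20 with DiBASC2 (0.004865).

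**Figure D3:**
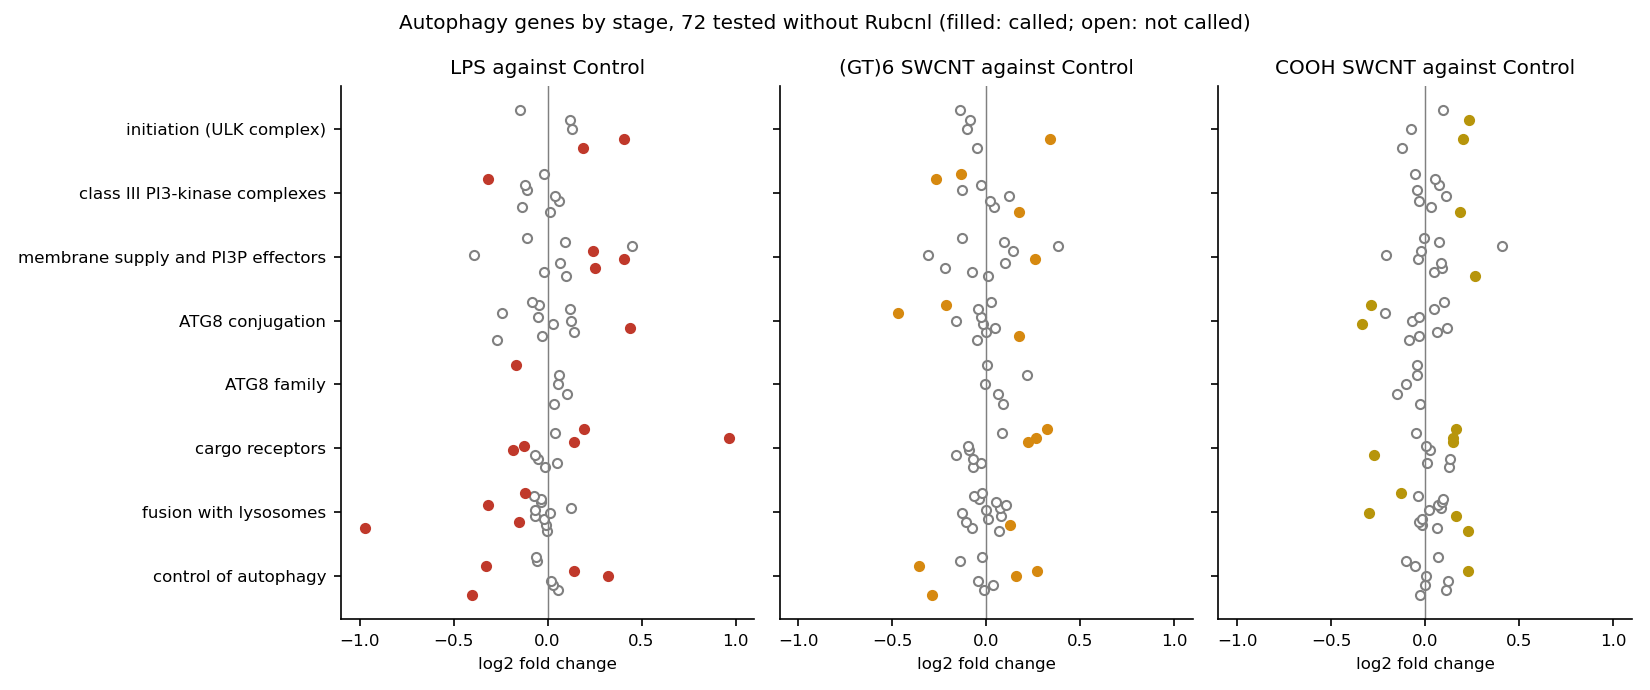
Log2 fold change against Control (horizontal axis) of the 72 tested genes of the wider list without Rubcnl, in rows by stage, for LPS and the 2 nanotube groups, with filled points for called genes. With LPS the farthest points are Plekhm1 at −0.97 in the fusion row and Sqstm1 at 0.96 in the cargo receptor row.

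**Figure D4:**
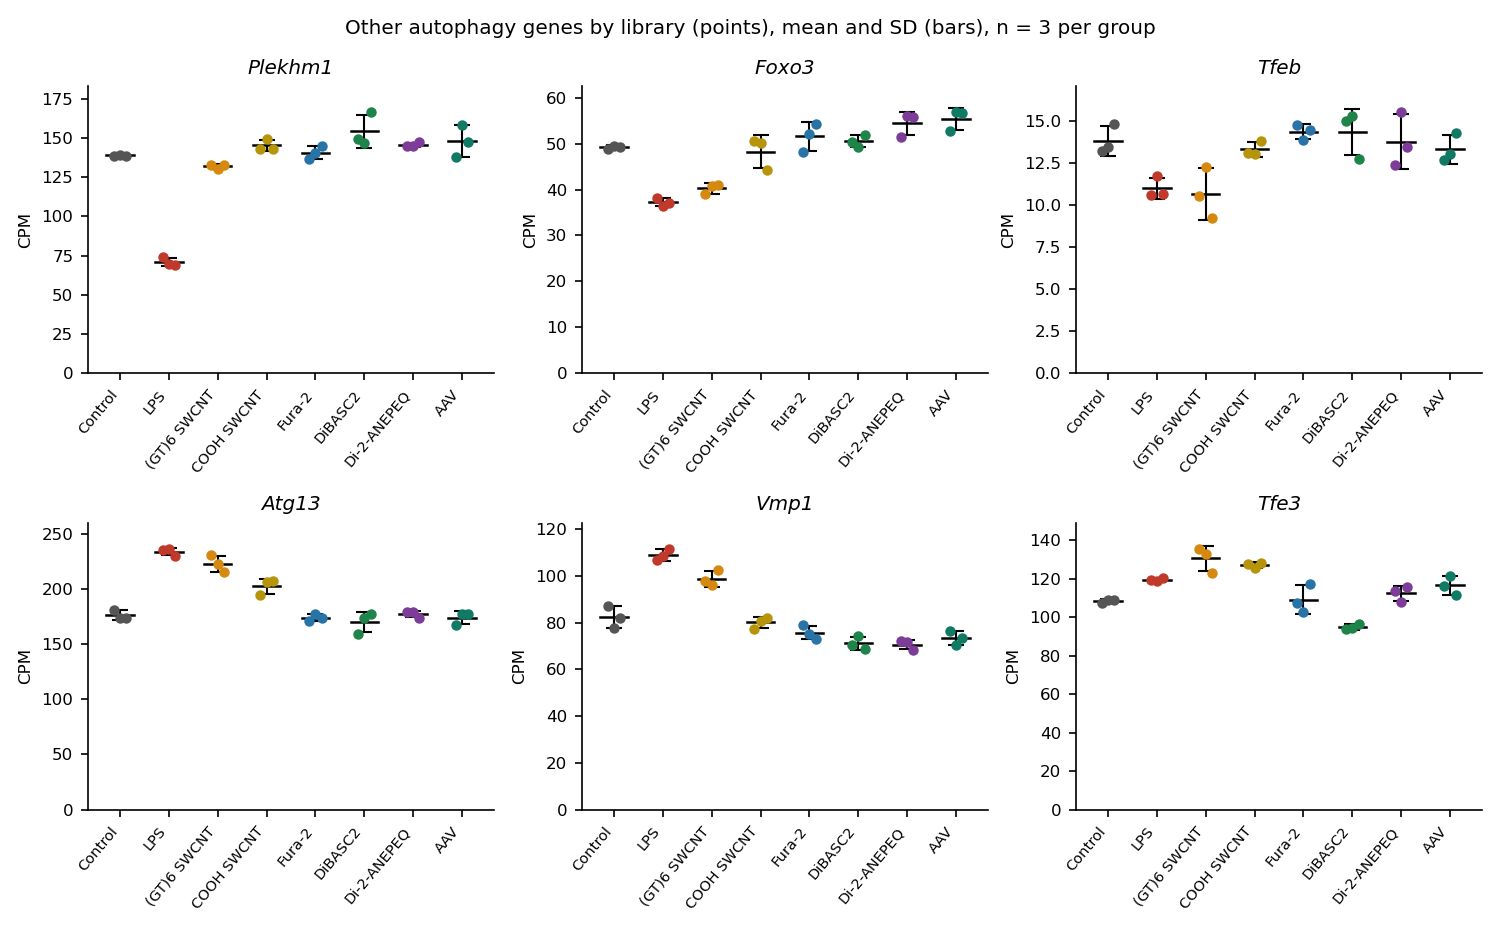
CPM of 6 other autophagy genes in each of the 24 libraries (points), with the group mean and SD (bars, n = 3) and axes that start at 0. Plekhm1 drops to 69.1 to 73.9 CPM with LPS, below every library of the other groups, and Atg13 is highest with LPS and (GT)6 SWCNT, at 216 to 237 CPM.

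The cargo receptor Tollip rose with (GT)6 SWCNT (0.32, adjusted p 1.538e-07), as did Retreg1, a receptor for endoplasmic reticulum (0.22, 3.793e-05), and Ambra1, a Beclin 1 partner (0.18, 0.01123; lost without (GT)6 SWCNT replicate 1, 0.13). Atg4c, a protease that processes ATG8 proteins, fell by 0.47 (adjusted p 0.0002902) and Atg5, part of the conjugation enzyme, by 0.22 (0.00895; lost without Control replicate 3, 0.171, or (GT)6 SWCNT replicate 1, 0.0802).

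With COOH SWCNT, 2 of 11 ATG8 conjugation genes fell and 0 rose. Of 14 fusion genes 2 fell and 2 rose, and of 10 cargo receptors 1 fell and 3 rose. Over all genes, 10.6% fell and 9.39% rose. Atg3, the conjugating enzyme, fell by 0.34 (adjusted p 1.219e-05), from 88.9, 87.2 and 81.8 CPM to 67.2, 68.2 and 68.6 CPM. Atg5 fell by 0.29 (0.0005619) and Vamp8, a fusion SNARE, by 0.30 (8.507e-05). Ykt6, another fusion SNARE, fell by 0.13 (0.01863) and Fundc1, a receptor for mitochondria, by 0.27 (0.01054). The Fundc1 call was lost without Control replicate 3 (0.0752) or COOH SWCNT replicate 1 (0.106), and that of Ykt6 without any of 4 libraries, Control replicates 1 and 3 and COOH SWCNT replicates 1 and 3 (up to 0.194), and with no filter on low counts (0.0557). Atg2a, a lipid transfer protein, rose by 0.26 (0.0009345), and Tecpr1, a tethering factor, by 0.17 (0.008682). Epg5, a fusion gene, rose by 0.23 (adjusted p 0.02135) and Ambra1 by 0.19 (0.007205). The Epg5 call was lost without Control replicate 1 (0.0692) or Control replicate 3 (0.0734), and that of Ambra1 without COOH SWCNT replicate 1 (0.0708).

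In the dye and AAV groups few genes of the list changed. With Fura-2 none of the 72 was called in edgeR's test, 7 had an unadjusted p under 0.05, and the count was 0 in DESeq2's test as well. With DiBASC2, 5 rose and 3 fell (1.82% and 3.64% of all genes), among them Zfyve1 (0.34, adjusted p 0.001679), Ulk2 (0.29, 0.007025) and Calcoco1 (0.30, 0.004755), which were higher, and Tollip (−0.18, 0.006537), which was lower. Without Control replicate 1 the adjusted p was 0.0504 for Calcoco1 and 0.104 for Tollip.

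With Di-2-ANEPEQ 0 rose and 4 fell (0.686% and 2.39% of all genes): Vmp1, Atg5 (−0.26, adjusted p 0.01033), Vamp8 (−0.21, 0.02091) and Atg3 (−0.20, 0.03366), the last named after its value was seen. The Atg5 call was lost when Control replicate 3 (0.13) or replicate 2 of Di-2-ANEPEQ (0.0862) was left out, and the Vamp8 call without any of 4 libraries, Control replicates 1 and 3 and Di-2-ANEPEQ replicates 2 and 3 (up to 0.152). With AAV 1 rose and 2 fell (1.84% and 3.16% of all genes). Foxo3 rose by 0.17 (adjusted p 0.04966) and Vamp8 fell by 0.27 (0.003322), beside Vmp1. The Foxo3 call was lost without any of 5 libraries, all but AAV replicate 1 (up to 0.164), and with upper-quartile scaling (0.0648), and that of Vamp8 without AAV replicate 2 (0.0536) or Control replicate 3 (0.0514).

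Genes with the pattern of Rubcnl over the 8 group means were sought among the 9492 tested genes with a mean of at least 5 CPM, by Pearson's r of log2 CPM. The 5 most like it were Wdr76 (r = 0.998), Pla2g15 (0.998), Tfap4 (0.998), Eepd1 (0.997) and Zfp608 (0.997). Tfap4, which encodes an E-box-binding transcription factor, was at 18.5 ± 0.709 CPM in Control, 7.27 ± 0.876 CPM with LPS, 11.8 ± 0.714 CPM with (GT)6 SWCNT, 15.03 ± 0.621 CPM with COOH SWCNT and 22.1 ± 1.33 CPM with DiBASC2 (SD, n = 3). Pla2g15, a lysosomal phospholipase, was at 32.4 ± 1.504 CPM in Control and 17.8 ± 1.65 CPM with LPS.

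The pattern itself was common: 659 genes, or 6.94%, had r above 0.9. The group means share libraries and their scaling, and the order among the 5 depends on the measure, since none of them was among the top 5 by Spearman's rho. Among the autophagy genes, the r with Rubcnl over the 8 group means was 0.92 for Rubcn, 0.79 for Map1lc3b, 0.42 for Ulk1, 0.18 for Uvrag, −0.17 for Wipi1, −0.25 for Becn1, −0.61 for Gabarapl1 and −0.97 for Sqstm1. These values include the LPS and (GT)6 SWCNT means by which Rubcnl was chosen and which span most of its range, so they only restate the levels given above.

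**Figure D5:**
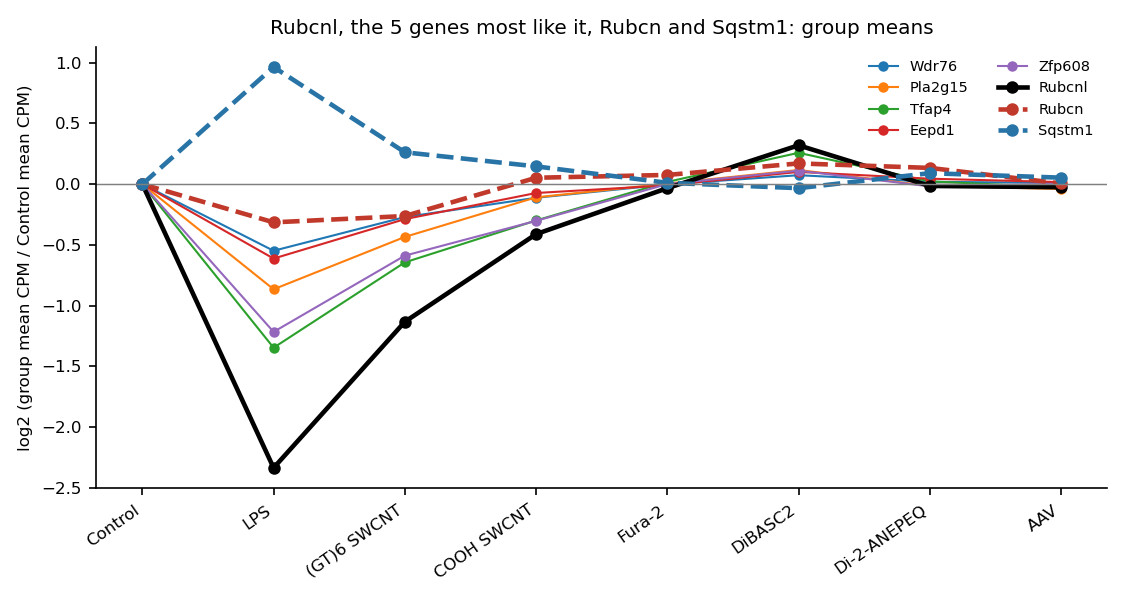
Log2 ratio of each group mean CPM to the Control mean CPM (vertical axis) in the 8 groups, for Rubcnl, the 5 genes most like it, Rubcn and Sqstm1, with lines that only join the points of one gene. Rubcnl has the deepest dip with LPS, Rubcn a shallow one in the same groups, and Sqstm1 the opposite course.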

How the data were processed

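The authors deposited 1 table of raw counts per gene (whole numbers), with 54838 mouse identifiers and a column per library. STAR 2.5.4b and the build GRCm38.p6 are named in the submitters' processing notes; the counting tool, its strand setting and its treatment of multiply mapped reads are not given in the sources used here, so values of genes with overlapping exons are uncertain. Groups came from the sample titles. The labels spell DiBASC2 and Di-2-ANEPEQ in several ways. Symbols, positions and exon lengths came from GENCODE M21 on GRCm38 (54723 identifiers matched, 115 did not), and promoter sequences from RefSeq.

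The analysis used edgeR 4.0.16 (R 4.3.3): filterByExpr (13116 genes kept), TMM factors, and 1 quasi-likelihood fit of all 24 libraries with 16 residual degrees of freedom. All 8 contrasts (7 treatments against Control, and the nanotube groups against each other) were tested two-sided with Benjamini-Hochberg adjustment within each. The standard error is the absolute log2 fold change divided by the square root of F. The script was tested on simulated data. Replicates correlated at r from 0.992 to 0.995, and replicate pairs all differed beyond sampling noise (chi-square per degree of freedom 2.47 to 19.5), so each library was counted separately. The biological coefficient of variation was 4.12%.

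The 10 genes, the wider list and the tests were chosen with earlier results of these data known. Besides the 10, the text names, of the wider list, up to 6 genes called each way in LPS and the nanotube groups and up to 3 in the others, with the largest changes, a mean of at least 5 CPM and no overlap of libraries, and the 5 genes most like Rubcnl. Settings varied were the scaling (upper-quartile factors or DESeq2 size factors), the filter (none, or at least 50 counts on average), the model (a replicate block, or only the groups compared), the test (DESeq2 1.42.0), the likeness measure (Spearman's rho) and the libraries (each left out in turn). A fit of only the groups compared also filters and scales the genes anew, and DESeq2's test uses its own size factors.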

Additional observations from a re-analysis of the deposited data

How the results depend on the processing

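Of 1513 values of single genes recomputed under an alternative, 1426 counted as unchanged, 82 calls were lost, 5 were gained and 0 reversed. Unchanged means the same side of the threshold. For the Rubcnl values described without a test, it means a shift smaller than the combined SD of the groups compared. A change of sign was read only for called genes and for these described values. Counts of called genes held within 1.5 times of those reported, apart from the following. With no filter on low counts 1 of the 9 genes was called with DiBASC2. With a fit of only the 2 groups compared, which also filters and scales anew, 7 of the 72 genes of the wider list were called with Di-2-ANEPEQ, 2 higher and 5 lower. By Spearman's rho 0 of the 5 genes most like Rubcnl were in the top 5. Upper-quartile scaling changed the split of the wider list to 8 higher and 3 lower with DiBASC2 and to 0 and 2 with AAV, where 54.9% and 26.3% of all called genes were higher. The causes were not tested.

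Leaving out 1 library at a time gave, among the 8 or 9 genes tested, 2 to 3 calls with LPS, 2 in every subset with (GT)6 SWCNT, 2 to 4 with COOH SWCNT, 0 to 1 with Fura-2 (1 without Fura-2 replicate 1), 0 to 2 with DiBASC2, 0 with Di-2-ANEPEQ and AAV, and 2 to 4 between the nanotube groups (2 without (GT)6 SWCNT replicate 1). In the wider list the counts were 16 to 19 with LPS, 12 to 16 with (GT)6 SWCNT, 10 to 18 with COOH SWCNT, 0 to 2 with Fura-2, 3 to 8 with DiBASC2 (3 without Control replicate 1), 1 to 3 with Di-2-ANEPEQ and 0 to 3 with AAV.

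Same-numbered deviations from the group mean correlated at −0.0801 to 0.0563 over 21 pairs of a treated and a Control library. In 10 of the 21, the treated library correlated best with its own number. With 3 libraries per group this check is weak, and it cannot settle whether replicate numbers pair the libraries. With the replicate number as a block, calls among the 10 genes were 3 with LPS, 3 with (GT)6 SWCNT, 3 with COOH SWCNT, 2 with DiBASC2 and 4 between the nanotube groups, and those of the wider list were 21, 16, 15, 8, 4 with Di-2-ANEPEQ and 2 with AAV, where Foxo3 had an adjusted p of 0.0505. Low counts limit the precision of Wipi1, at 6 to 37 per library.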

Other observations

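Optn had 0 counts between neighbours that were expressed. Mcm10, which encodes a DNA replication factor and starts 7851 bases away on the side of lower coordinates, had 2037 to 3700 counts per library (109 to 125 CPM). Camk1d, a kinase gene 229406 bases away on the other side, had 1123 to 2110 counts (61.3 to 72.3 CPM). Ucma and Ccdc3, which also flank Optn, and the antisense gene 4930551O13Rik, which overlaps its exons, had 0 counts in all 24 libraries.

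Over the wider list, the nanotube preparations differed from each other in 26 of 72 genes, 12 higher and 14 lower in (GT)6 SWCNT (11.9% and 9.48% of all genes). Of the 9 genes that control autophagy 1 was higher and 4 were lower, and of the 11 genes of ATG8 conjugation 2 were higher and 1 was lower.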
